A study of Mus musculus with 26 samples.

Results

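The histone cluster genes were taken as every gene of the count table whose mouse symbol, in the older nomenclature, begins with Hist1h, Hist2h, Hist3h or Hist4h, with H1f0 added. This gave 71 genes of 37991: 7 of the linker histone H1, 20 of H2A, 19 of H2B, 12 of H3 and 13 of H4. On the NCBIM37 (mm9) assembly, 56 of them lie in the Hist1 cluster on chromosome 13, 10 in Hist2 on chromosome 3, 3 in Hist3 on chromosome 11, Hist4h4 alone on chromosome 6, and H1f0 on chromosome 15.

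RNA-seq was carried out on 26 libraries of PN24 (postnatal day 24) mice homozygous for rd10, a mutation of the rod phosphodiesterase gene Pde6b in which rods degenerate. The mice were injected intraperitoneally from PN9 to PN24 with an inhibitor or, as controls, with saline, and each inhibitor had its own controls. The study's methods give daily injections, and its results describe DZNep as daily at first, then every second day at a lower dose. Whole retinas gave 3 Romidepsin (HDAC inhibitor) and 3 control libraries, and 2 UNC0642 (inhibitor of the H3K9 methyltransferases EHMT2 and EHMT1) and 2 control libraries. They also gave 2 DZNep and 4 control libraries, and 3 UNC1999 and 3 control libraries. The study describes DZNep and UNC1999 both as EZH2 inhibitors, UNC1999 as the more specific. FACS-sorted rods gave 2 GSK2879552 (LSD1 inhibitor) and 2 control libraries, from mice of a line that also carries EGFP in rods under the Nrl promoter. Per the study's methods UNC1999 was dissolved in a mixture with DMSO, PEG300 and Tween-80. The labels and methods give saline for all controls, whereas a legend speaks of diluent for UNC1999. If saline was used there, inhibitor and diluent cannot be told apart. The same methods give a SMART-Seq kit for the sorted rods where the sample labels give the stranded oligo(dT) kit of the retinas.

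Histone octamers of H2A, H2B, H3 and H4 package DNA into nucleosomes, and H1 binds the linker DNA between them. Most cluster genes are replication-dependent: they are transcribed in S phase, have no introns, and their mRNAs end in a conserved stem-loop instead of a poly(A) tail. H1f0 encodes H1.0, a linker histone of differentiated and non-dividing cells made from a polyadenylated mRNA, and it is known as a gene that HDAC inhibitors can raise in cultured cells. Some cluster genes also make polyadenylated transcripts in cells that have left the cell cycle. Retinal neurons at this age no longer divide, and both kits capture RNA through poly(A), so a level below is that of the polyadenylated part of a gene's RNA.

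A stem-loop was found downstream of the stop codon in 63 of the 67 members with a coding annotation. The core was the same 16 bases in 39 members, from all classes but H4, and H4 genes had cores of their own. The loops of 5 members described below are printed here because the H4 stem differs from that of the others. They are 26 bases of NCBIM37, 5′ to 3′ on the strand of the gene, with the stem, loop and stem in capitals.
Hist1h1c (H1), chr13:23831376-23831401, plus strand: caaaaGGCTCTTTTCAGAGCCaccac
Hist3h2a (H2A), chr11:58768669-58768694, plus strand: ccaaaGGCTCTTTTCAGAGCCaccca
Hist1h2be (H2B), chr13:23677395-23677420, minus strand: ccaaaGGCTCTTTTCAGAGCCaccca
Hist1h4i (H4), chr13:22132830-22132855, minus strand: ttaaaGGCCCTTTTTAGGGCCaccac
Hist1h4k (H4), chr13:21842014-21842039, minus strand: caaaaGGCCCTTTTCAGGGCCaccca

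Promoter windows, 250 bases before to 50 after the start, were at hand for 62 members (RefSeq, GRCm38.p6). CCAAT on either strand stood in all 17 H2A, all 16 H2B and all 10 H3 windows, against 37.4% of all 32851 windows, and in 3 of 12 H4 windows. The letters AAACACA, known as the H1 box, stood in 5 of 7 H1 windows against 7.18% of all windows. TATAAA stood in 56.5% of the members' windows against 13.6% of all, and ATTTGCAT, the octamer, in 7 of 17 H2A and 6 of 16 H2B windows against 1.74% of all. TATAAA and AAACACA can share letters, and were counted separately. The windows of Hist1h1c, of H1f0 and of Hist1h4k are printed with motifs in capitals, as those of the member that rose most under DZNep, of the most abundant member and of the member that fell under Romidepsin. Hist1h1c holds AAACACA at -112 and CCAAT at -54 from the start, H1f0 holds none of the 4 motifs, and Hist1h4k holds TATAAA at -16.
Hist1h1c, chr13:23738557-23738856, plus strand: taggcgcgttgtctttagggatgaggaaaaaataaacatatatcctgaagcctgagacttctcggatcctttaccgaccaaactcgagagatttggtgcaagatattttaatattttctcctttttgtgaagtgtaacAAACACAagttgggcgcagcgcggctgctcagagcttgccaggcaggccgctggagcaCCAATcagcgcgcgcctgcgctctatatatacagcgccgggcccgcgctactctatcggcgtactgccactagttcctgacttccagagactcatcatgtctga
H1f0, chr15:79027962-79028261, plus strand: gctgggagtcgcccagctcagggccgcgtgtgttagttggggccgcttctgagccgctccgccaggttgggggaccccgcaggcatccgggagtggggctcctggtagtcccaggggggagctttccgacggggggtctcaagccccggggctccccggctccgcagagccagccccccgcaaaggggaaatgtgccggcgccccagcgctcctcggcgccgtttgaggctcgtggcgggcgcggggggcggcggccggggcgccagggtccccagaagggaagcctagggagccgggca
Hist1h4k, chr13:21750504-21750803, minus strand: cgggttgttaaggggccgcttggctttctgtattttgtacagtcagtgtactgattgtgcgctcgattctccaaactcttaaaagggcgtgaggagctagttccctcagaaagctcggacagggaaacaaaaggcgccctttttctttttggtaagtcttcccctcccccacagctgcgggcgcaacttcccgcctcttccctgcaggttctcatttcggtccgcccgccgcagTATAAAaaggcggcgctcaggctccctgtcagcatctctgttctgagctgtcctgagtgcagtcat

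Libraries held 13732959 to 36354094 counts in retinas and 7289460 to 19864491 in sorted rods. DZNep treated replicate 2 stood apart in lens genes: its 5 crystallin and lens markers summed to 71.3 CPM (counts scaled to library size and TMM factor) against 0.899 to 2.99 in the other 21 retinas. DZNep values without it are given below. The sorted rods bore out their label, since the 10 rod markers, none at 0, summed to 54060 to 82910 CPM against 8479 to 66580 in retinas, the 6 Müller glia markers to 96.6 to 182 CPM against 3244 to 5678, and the 10 microglia markers to 27.9 to 52.9 CPM against 120 to 783. Rpe65 and Ttr, markers of the pigment epithelium, were at 0 in all sorted libraries.

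The members together took 0.0196% to 0.0306% of the counts of a retina and 0.0212% to 0.0328% of those of sorted rods. A few genes carried nearly all of this. The 6 most abundant members of a library held 86.8% to 94.7% of the members' summed CPM in retinas. In retinas 15 of 71 members averaged at least 1 CPM and 6 at least 10 CPM, whereas 22 members never exceeded 3 counts in any of the 26 libraries. Hist1h2ba, Hist1h2an and Hist1h2ap had no count anywhere. With 3 counts as the floor, a gene at 0 in a retina may have had up to 0.0875 to 0.223 CPM there, counting error only.

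H1f0 was the most abundant member in retinas, with a mean of 65.5 CPM over 22 libraries. Hist1h2bc (H2B) followed with 45.4 CPM, Hist3h2ba (H2B) with 41.2, Hist1h1c (H1, the H1.2 subtype) with 34.6, Hist3h2a (H2A) with 21.0 and Hist2h2be (H2B) with 18.2. H3 and H4 were low: their most abundant members were Hist2h3c2 with 3.48 CPM and Hist1h4i with 4.50 CPM. Per kb of annotated exon, H1f0 stood at 123 CPM, Hist3h2ba at 66.5, Hist1h2bc at 61.7, Hist1h1c at 22.2, Hist3h2a at 10.6, Hist1h4i at 8.37 and Hist2h2be at 6.96. The annotation at hand gives H1f0 and Hist2h3c2 as pseudogenes without a coding part, and for H1f0 only 534 exon bases, so its level per kb rests on a short model.

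The plot of all members by their exon shows how level went with the annotated 3′ end. In 20 members the annotated exon runs at least 100 bases past the stem-loop, and 9 of these averaged at least 1 CPM in retinas, with a median of 0.329 CPM per kb. In 43 members the annotated exon ends before the loop, at it or less than 100 bases past it, and 3 of these averaged at least 1 CPM, with a median of 0.0596 CPM per kb. The first class carried 62.1% of the members' summed level and the second 2.90%, the rest being H1f0 and the other 7 members with no loop found or no coding annotation. This is a description over genes, with no test: the classes also differ in how much of their sequence is shared with other genes, since the median share of 50-base words that recur elsewhere in the genome was 33.6% in the first and 56.4% in the second. Among members under 50% repeated, 8 of 15 averaged at least 1 CPM in the first class and 1 of 19 in the second.

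**Figure D1:**
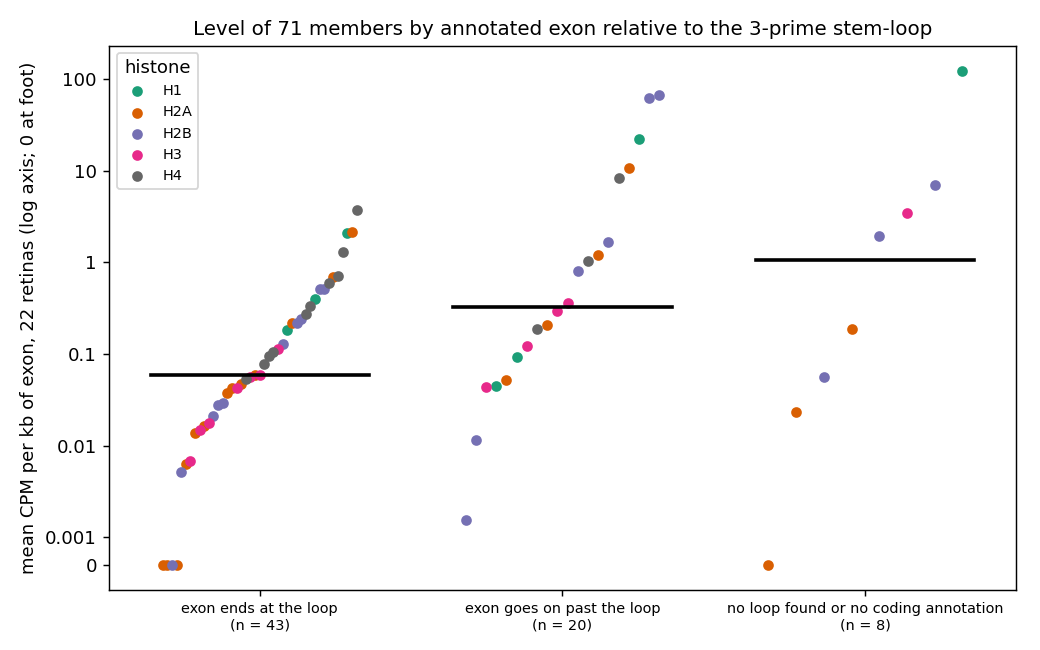
Mean CPM per kb of annotated exon over 22 retinas (log axis, genes with no count at the foot) for 71 members, in 3 classes by whether the annotated exon runs at least 100 bases past the stem-loop. Each point is a gene coloured by histone, and lines are class medians: 0.0596 where the exon ends at the loop, 0.329 where it goes on, and 1.05 for the 8 others.

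The ranges of sorted rods and whole retinas lay apart for 9 of the 68 members with a count, 3 higher and 6 lower in rods, against 44.3% of the 26525 genes with a count (19.0% higher and 25.2% lower), a smaller share than over all genes. Many members could hardly lie apart, since 22 of 71 never exceeded 3 counts in any library and zeros in both groups overlap. Cell type, mouse line, kit and experiment cannot be told apart here and no test was made. The ranges pool treated and control libraries. TMM factors were computed within each experiment, so the CPM of rods and of retinas were not scaled to each other. With values under 3 counts set to that floor in the lower group, 7 members lay apart, against 41.5% of genes. Hist1h1c averaged 105 CPM in the 4 rod libraries, which ranged from 76.1 to 132, against 15.2 to 78.7 in retinas, ranges that overlap only through DZNep treated replicate 1. Hist1h2bg (H2B) ranged from 3.45 to 9.18 CPM in rods and from 0.622 to 1.73 in retinas. Its divergent neighbour Hist1h2ae (H2A) had 1.35 to 2.24 CPM in rods and at most 0.214 in any retina, where 13 of 22 libraries had no count. Hist1h3a (H3) was the only other member whose rod range lay wholly above, at a mean of 0.537 CPM, or 27 counts over the 4 libraries. In the opposite direction, Hist3h2ba had 4.11 to 8.43 CPM in rods against 21.4 to 55.3 in retinas, Hist2h2be 3.90 to 6.56 against 12.2 to 24.8, and H1f0 33.0 to 47.4 against 55.4 to 75.3. Hist1h4i had 0.104 to 1.61 CPM in rods against 2.29 to 7.34 in retinas. Hist2h3c1 and Hist1h2ai lay apart as measured but not at the floor, since Hist2h3c1 reached 0.176 CPM in rods against a lowest retina of 0.187, and Hist1h2ai had no count in rods against a lowest retina of 0.0461.

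**Figure D2:**
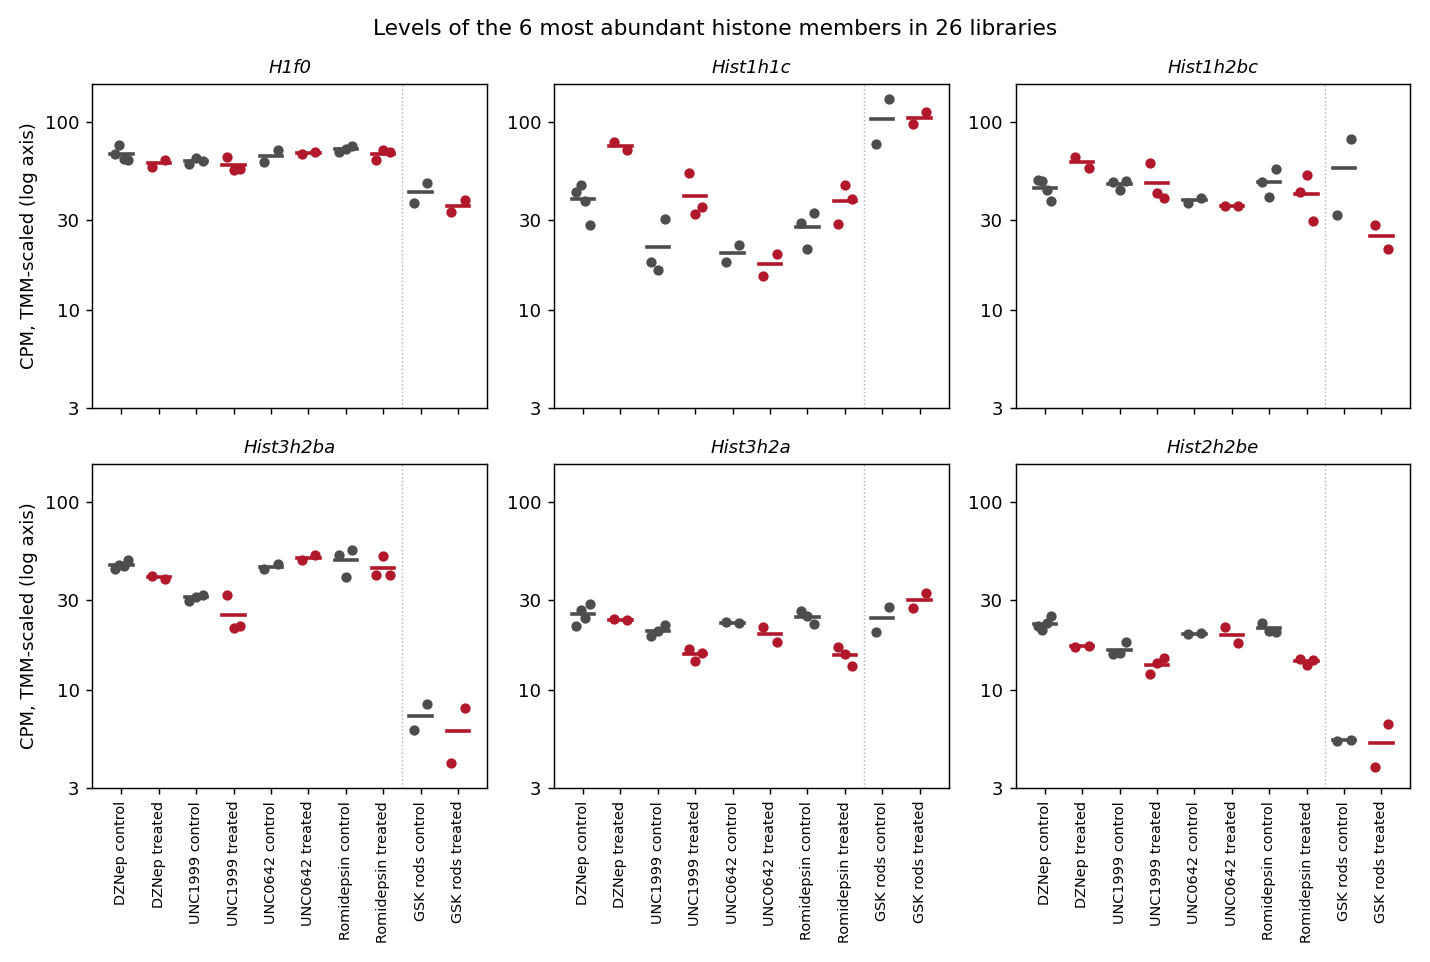
TMM-scaled CPM on a log axis for the 6 most abundant members in 26 libraries. Points are libraries (grey control, red treated), horizontal lines are group means, and the dotted line separates the retinas from the sorted rods. Hist1h1c is highest in sorted rods and in the DZNep treated retinas, and H1f0 lies between 55.4 and 75.3 CPM in the retinas.

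Each inhibitor was then compared with its own controls with edgeR's quasi-likelihood test over all genes that passed a filter on low counts, with Benjamini-Hochberg adjustment. The filter left 17 to 20 members in a comparison, 23 in at least 1 comparison and 13 in all 5. The 48 other members, among them 16 of 20 H2A genes, had too few counts for a comparison. "Passed" below means an adjusted p under 0.05, and "lower" or "higher" without it describes only the fold change.

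**Figure D3:**
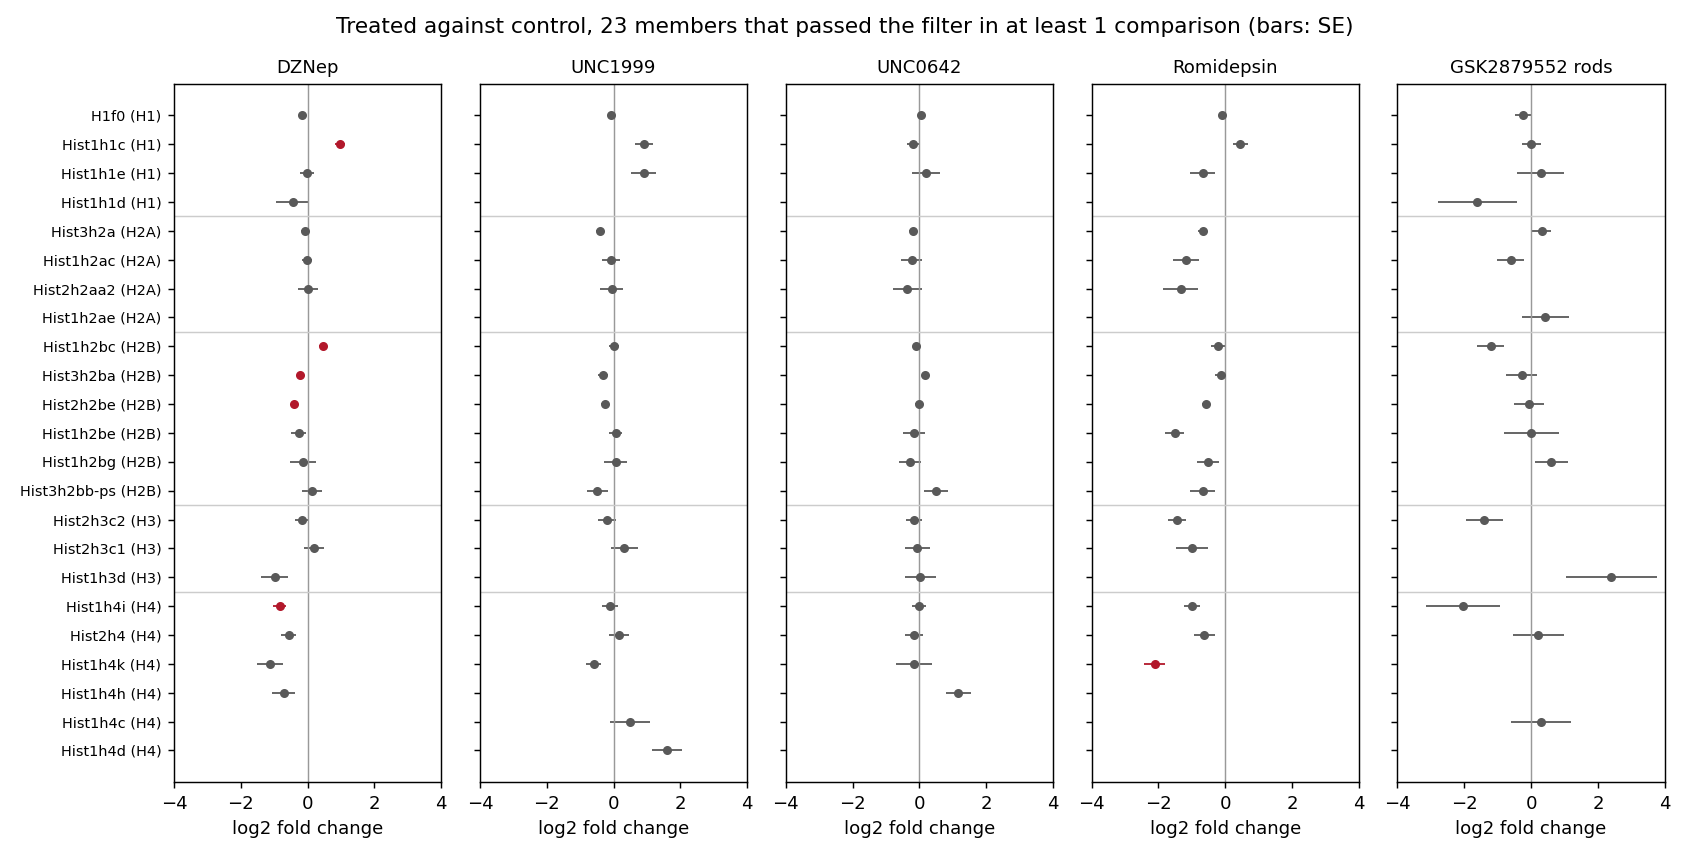
Fitted log2 fold change, treated against control, in the 5 comparisons for the 23 members that passed the filter at least once, grouped by histone. Bars are standard errors and red points have an adjusted p under 0.05. Red appears for 5 members under DZNep and for Hist1h4k under Romidepsin, where 16 of 17 points lie left of 0.

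Under DZNep, 5 of 20 members passed, against 22.7% of the 16477 genes tested. The linker histone gene Hist1h1c and the H2B gene Hist1h2bc rose, and Hist2h2be (H2B), Hist1h4i (H4) and Hist3h2ba (H2B) fell. In direction, 2 higher stood against 12.9% of all genes and 3 lower against 9.72%. The median log2 fold change was -0.18 over the members tested and -0.00 over all genes, and 15 of 20 were lower against 50.1% of all genes. An unadjusted p under 0.05 was found for 8 members against 36.5% of all genes. The groups lay apart for 9 against 45.9%. The study's rule also asks for a log2 fold change over 1. Applied here to the quasi-likelihood adjusted p, it called none against 1.71%. The study itself used the likelihood ratio test. At an adjusted p under 0.05 that test passed 6 of 20 members, Hist1h4k included, against 21.5% of all genes.

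Hist1h1c had 42.4, 46.0, 38.1 and 28.2 CPM in the 4 controls and 78.7 and 71.2 CPM in the 2 DZNep retinas. Both treated libraries were above every control and the log2 fold change was 0.96 ± 0.15 (SE, adjusted p = 0.00345, edgeR). It was the larger of the 2 rises.

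Hist1h2bc had 49.1, 48.4, 43.6 and 38.0 CPM in controls and 64.8 and 57.1 CPM under DZNep. It rose by 0.45 ± 0.10 on the log2 scale (SE, adjusted p = 0.0153, edgeR) without overlap. Of its exon words 50.8% recur elsewhere, so reads of other H2B genes may be among its counts.

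Hist2h2be, whose transcript had no stem-loop match, had 21.9, 20.8, 22.8 and 24.8 CPM in controls and 17.0 and 17.2 under DZNep, a log2 change of -0.41 ± 0.08 (SE, adjusted p = 0.0104). Hist1h4i, the most abundant H4 gene, had 5.74, 7.08, 5.17 and 7.34 CPM in controls and 3.18 and 4.09 under DZNep, a change of -0.83 ± 0.19 (SE, adjusted p = 0.0172). Hist3h2ba moved least, from 46.3 ± 2.03 (SD, n = 4) to 39.8 ± 1.31 CPM (SD, n = 2), a change of -0.22 ± 0.06 (SE, adjusted p = 0.0317, edgeR).

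All 4 H4 genes tested were lower under DZNep, with a median of -0.77, while 2 of 6 H2B genes were higher. Hist1h4k, at -1.13 ± 0.40 (SE), had an adjusted p of 0.0718 (edgeR). H1f0 had 67.5 ± 5.65 CPM (SD, n = 4) in controls and 60.2 ± 3.77 CPM (SD, n = 2) under DZNep, with no overlap but an adjusted p of 0.161 (edgeR). Hist3h2a and Hist2h3c2, the most abundant H2A and H3 genes, had log2 fold changes of -0.09 ± 0.10 and -0.18 ± 0.19 (SE), with adjusted p of 0.559 and 0.513 (edgeR).

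Without DZNep treated replicate 2, the library with lens genes, 2 members were higher and 3 lower, with Hist1h4k in place of Hist3h2ba. Without treated replicate 1 none of the 21 members then tested passed, Hist1h1c having a log2 fold change of 0.88 with an adjusted p of 0.0513 (edgeR). The rod markers moved with these values: all 10 passed higher, and their summed level was 17460 to 29280 CPM in controls and 54450 to 56120 under DZNep. Of the Müller glia markers 4 of 6 passed lower, from 5152 to 5678 CPM in controls to 4098 to 4398, and none of the 10 microglia markers passed, although 9 had an unadjusted p under 0.05. Of the 6 pigment epithelium markers 3 rose, Rpe65, Rgr and Rdh5, by 1.95, 2.01 and 1.00 on the log2 scale, and 1 fell, Rlbp1, which is also in the Müller glia list. The pigment epithelium list summed to 675 to 833 CPM in controls and 638 to 711.5 CPM treated. In bulk retina, fewer cells of a type and less RNA per cell cannot be told apart, and the part of cell composition in the histone values was not tested.

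Under UNC1999 none of 19 members passed (edgeR), against 0.602% of the 15775 genes tested. An unadjusted p under 0.05 was found for 6, against 23.6% of all genes, and the groups lay apart for 5 against 27.4%. The likelihood ratio test passed 3 of 19 members, against 10.4% of all genes by that test, and DESeq2 passed 2 of the 16 to which it gave an adjusted p, against 9.62%. The median log2 fold change was -0.06, against -0.00 over all genes, with 9 higher and 10 lower against 50.4% of all genes lower.

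Hist1h1c had 17.9, 16.2 and 30.5 CPM in controls and 53.3, 32.2 and 35.3 CPM under UNC1999. Every treated library was above every control, with a log2 fold change of 0.90 ± 0.27 (SE, adjusted p = 0.102, edgeR). The adjusted p ranged from 0.00584 to 0.329 over the alternative settings. DESeq2, the likelihood ratio test, the fit of all 22 retinas and the fit without control replicate 3, the control with most Hist1h1c, put it under 0.05.

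Hist3h2a had 19.3, 20.7 and 22.1 CPM in controls and 16.5, 14.3 and 15.8 under UNC1999, a log2 difference of -0.42 ± 0.10 (SE, adjusted p = 0.0634, edgeR). Over the alternative settings its adjusted p ranged from 0.0157 to 0.241. The settings that put Hist1h1c under 0.05, and the fit without a filter, also put Hist3h2a under it. Hist1h4d (H4) had 0.308, 0.145 and 0.0952 CPM in controls and 0.497, 0.592 and 0.547 CPM treated, values that rest on 2 to 6 counts in controls and 8 to 14 in treated libraries. Its log2 fold change was 1.60 ± 0.44 (SE, adjusted p = 0.0876, edgeR). Hist1h4d and Hist1h4k differ from each other in sign here, Hist1h4k being at -0.60 ± 0.22 (SE, adjusted p = 0.150, edgeR).

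H1f0 had 62.0 ± 2.38 CPM in controls and 59.0 ± 5.65 CPM under UNC1999 (SD, n = 3 each). Hist1h2bc, Hist1h4i and Hist2h3c2 had log2 fold changes of 0.02 ± 0.15, -0.10 ± 0.24 and -0.20 ± 0.28 (SE), with adjusted p of 0.965, 0.835 and 0.707 (edgeR). Rod markers summed to 18630 to 35660 CPM in controls and 48570 to 66580 CPM under UNC1999, and control replicate 3, with the most Hist1h1c, also had the most rod marker RNA of the controls. None of the 10 rod markers passed and all 10 were higher. Of the pigment epithelium markers 4 of 6 passed higher, Rgr going from 27.5 ± 1.198 to 118 ± 13.6 CPM (SD, n = 3 each), and the list summed to 435 to 646 CPM in controls and 799.8 to 986 treated. Microglia markers summed to 197 to 334 CPM in controls and 119.8 to 155 treated, all 10 lower in sign and none passed. The part of these cell types in the Hist1h1c values was not tested.

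Under UNC0642 none of 19 members passed, nor did any of the 16321 genes tested (0.0%, edgeR). The likelihood ratio test passed no member either, against 0.888% of all genes by that test. DESeq2 passed none of the 4 members to which it gave an adjusted p, against 1.68%. An unadjusted p under 0.05 was found for 1 member, against 14.7% of all genes. The groups lay apart for 6 members against 52.1% of all genes, and 13 of 19 were lower against 50.3%, with a median of -0.10. The member with an unadjusted p under 0.05 was Hist1h4h (H4), with 0.616 and 0.433 CPM in controls and 1.17 and 1.24 CPM treated, or 8 to 15 counts against 17 to 21. Hist1h1c was lower in sign, with 17.9 and 22.2 CPM in controls and 15.2 and 19.9 CPM treated, and the groups overlapped. H1f0 had 66.1 ± 7.02 CPM in controls and 68.2 ± 0.930 CPM treated (SD, n = 2 each). The log2 fold changes of Hist3h2a, Hist1h2bc, Hist2h3c2 and Hist1h4i were -0.20 ± 0.12, -0.10 ± 0.08, -0.17 ± 0.24 and -0.01 ± 0.20 (SE). Rod markers summed to 8479 and 8595 CPM in these controls, the lowest of the retinas, and to 8890 and 13480 CPM treated.

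Under Romidepsin 1 of 17 members passed and fell, the H4 gene Hist1h4k, against 0.748% of the 16049 genes tested and 0.174% lower. It also met the study's rule, applied to the quasi-likelihood adjusted p, against 0.561% of all genes. The fold changes of the members lay almost all to one side. Of 17 members, 16 were lower, against 51.1% of all genes, with a median of -0.68 on the log2 scale against -0.01. An unadjusted p under 0.05 was found for 8, all lower, against 9.46% of all genes lower and 19.4% in either direction, and 9 were lower without overlap against 12.5% lower and 26.0% in either direction. The exception in sign was Hist1h1c. Hist1h4k, Hist2h2aa2 and Hist2h3c1 fell as low as 5, 3 and 4 counts in treated libraries. They reached the filter through their controls, and so count as lower partly by selection. With at least 10 counts in every library, 14 members were tested, with a median of -0.63. Hist1h4k was then not tested, and 1 member passed, Hist1h2be, lower.

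Hist1h4k had 1.71, 1.50 and 1.42 CPM in controls and 0.453, 0.276 and 0.326 CPM under Romidepsin. These are 25 to 28 counts in controls and 5 to 8 in treated libraries, and the log2 fold change was -2.11 ± 0.32 (SE, adjusted p = 0.0338, edgeR). Its adjusted p ranged from 7.53e-06 to 0.150 over the alternatives, and leaving out any control or treated replicate 3 took it above 0.05, to between 0.0651 and 0.150. Of its exon words 71.5% recur elsewhere, and the deposited counts do not show how reads shared with other H4 genes were assigned.

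The members with the next smallest p were chosen for mention after their values were seen, and none passed. Hist1h2be (H2B) had 2.46, 2.08 and 2.74 CPM in controls and 0.905, 1.05 and 0.606 CPM treated, at -1.51 ± 0.29 (SE, adjusted p = 0.0564, edgeR). Hist2h3c2 (H3) had 4.86, 3.53 and 4.90 CPM in controls and 2.21, 1.32 and 1.35 CPM treated, at -1.45 ± 0.28 (SE, adjusted p = 0.0564, edgeR). In both genes every treated library was below every control.

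Hist3h2a had 26.3, 24.7 and 22.5 CPM in controls and 17.0, 15.5 and 13.4 CPM under Romidepsin, at -0.68 ± 0.14 (SE, adjusted p = 0.0656, edgeR). Hist2h2be had 22.7, 20.7 and 20.5 CPM in controls and 14.7, 13.6 and 14.5 CPM treated, at -0.58 ± 0.13 (SE, adjusted p = 0.0705, edgeR). Hist1h4i was at -0.99 ± 0.25 (SE, adjusted p = 0.084, edgeR). The likelihood ratio test and DESeq2 each passed these 5 with Hist1h4k, all lower, against 3.29% and 3.04% of all genes lower by these tests. The fit of all 22 retinas passed 7 of 23, with Hist1h2ac added, against 8.38% lower in that fit.

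By class, the medians under Romidepsin were -0.09 in H1 (3 tested), -1.17 in H2A (3), -0.54 in H2B (6), -1.22 in H3 (2) and -0.99 in H4 (3). Those of H2A, H3 and H4 include Hist2h2aa2, Hist2h3c1 and Hist1h4k, which reached the filter through their controls. The summed level of the H4 genes was 6.94 to 10.6 CPM in controls and 4.66 to 5.57 CPM treated, that of H3 5.18 to 7.01 against 1.87 to 4.07, and that of H2A 27.7 to 32.4 against 15.0 to 20.2, all without overlap. Single genes carried much of these sums: in controls Hist3h2a averaged 24.5 of 29.4 CPM, Hist2h3c2 4.43 of 6.32 and Hist1h4i 5.05 of 9.155. The sums of H2B, 105 to 137.5 against 87.5 to 121, and of H1, 94.8 to 110 against 93.3 to 119, overlapped. Among the H2B genes, Hist1h2bc was at -0.21 ± 0.21 and Hist3h2ba at -0.14 ± 0.16 (SE), with adjusted p of 0.627 and 0.680 (edgeR). All 71 members together summed to 240 to 292 CPM in controls and 219 to 266 CPM treated, groups that overlap, since H1f0, Hist1h2bc, Hist3h2ba and Hist1h1c carry most of the sum.

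H1f0 had 69.5, 71.9 and 74.6 CPM in controls and 62.6, 70.7 and 69.6 CPM under Romidepsin, a log2 difference of -0.09 ± 0.11 (SE, adjusted p = 0.687, edgeR). Hist1h1c had 29.2, 21.1 and 32.6 CPM in controls and 28.7, 46.2 and 38.8 CPM treated, at 0.46 ± 0.21 (SE, adjusted p = 0.282, edgeR), with overlap. Rod markers summed to 14710 to 24190 CPM in controls and 24220 to 31700 CPM treated, Müller glia markers to 4956 to 5678 and 3602 to 4247, and pigment epithelium markers to 658 to 768 and 391 to 512. Most of the last sum is Rlbp1, a gene of the Müller glia list too, with 646 ± 54.2 CPM in controls and 408 ± 54.9 CPM treated (SD, n = 3 each). Of the other 5 pigment epithelium markers, Rpe65, Rdh5 and Ttr were lower without overlap, Rgr and Best1 overlapped, and none passed. Microglia markers summed to 399 to 643 and 316 to 459 CPM, with 1 of 10 passed, lower. Their part in the histone values was not tested.

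**Figure D4:**
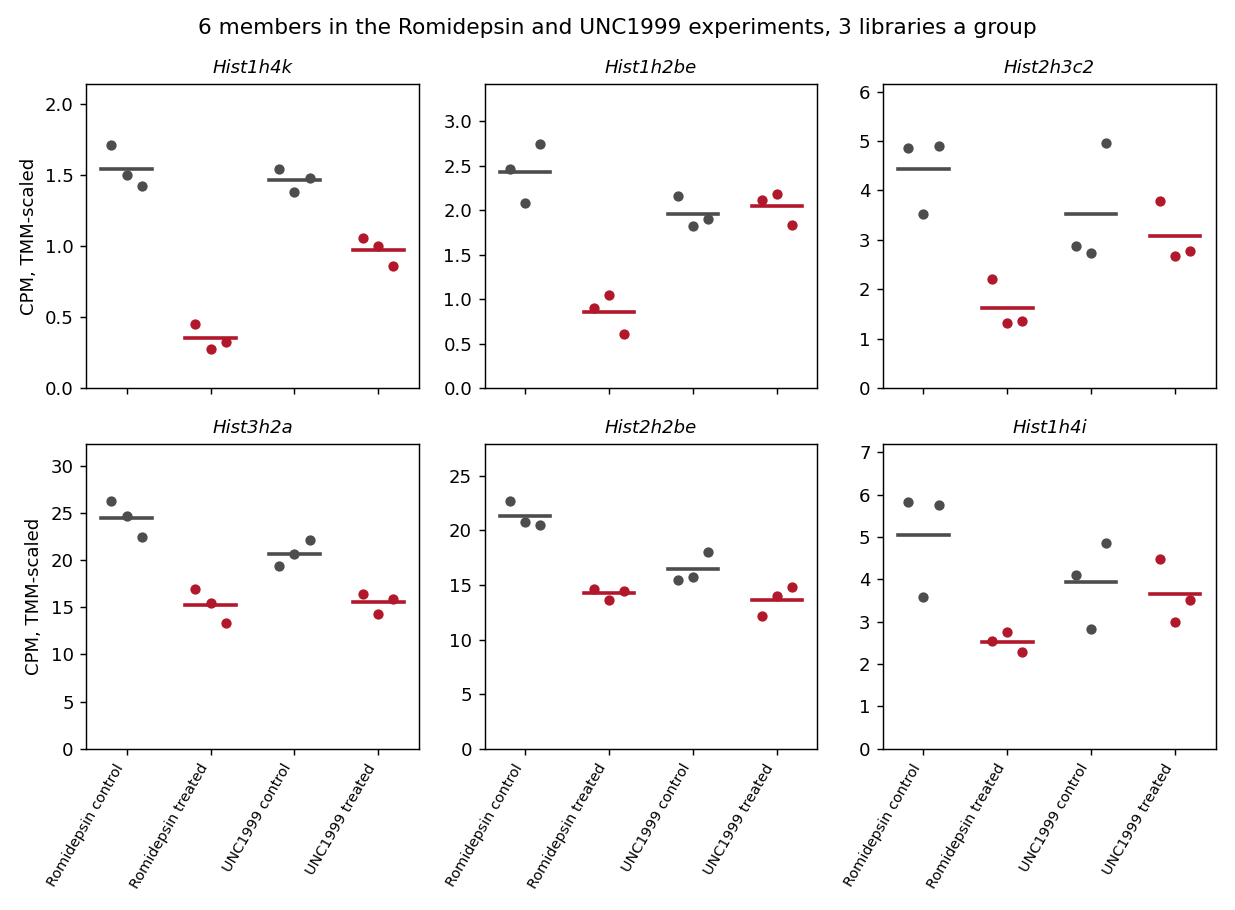
TMM-scaled CPM (linear axes from 0) of 6 members in the Romidepsin and UNC1999 experiments, with 3 libraries a group as points and means as lines. All 3 Romidepsin libraries lie below their 3 controls in every panel, and under UNC1999 the groups overlap for Hist1h2be, Hist2h3c2 and Hist1h4i and lie apart for the others.

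Under GSK2879552 in sorted rods none of 17 members passed, nor did any of the 14478 genes tested (0.0%, edgeR). The likelihood ratio test and DESeq2 passed no member, against 0.49% and 0.297% of all genes by these tests. Of the members, 2 had an unadjusted p under 0.05, against 4.91% of all genes. The groups lay apart for 7 members against 33.2%, and 8 of 17 were lower against 51.2%. Hist1h2bc had 31.97 and 81.27 CPM in controls and 28.2 and 21.0 CPM treated, so that 1 control library set the difference. The log2 fold change was -1.21 ± 0.41 (SE, adjusted p = 0.975, edgeR), and -0.38 (adjusted p = 0.993, edgeR) without that library, control replicate 2. Hist2h3c2 had 3.75 and 5.62 CPM in controls and 1.92 and 1.61 CPM treated, at -1.40 ± 0.55 (SE, adjusted p = 0.987, edgeR). Hist1h1c had 76.1 and 132 CPM in controls and 97.7 and 113 CPM treated, a log2 fold change of 0.01 ± 0.28 (SE). H1f0 was at -0.24 ± 0.25, Hist3h2a at 0.31 ± 0.28 and Hist1h4i at -2.04 ± 1.10 (SE), the last on 12 and 19 counts in controls and 2 and 6 treated.

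Whether inhibitors differed in their effect on the members was tested in one fit of all 22 retinas, each effect being taken against its own controls. Of 23 members tested, 2 passed for UNC1999 less Romidepsin, against 5.11% of 17274 genes, and 11 had an unadjusted p under 0.05 against 21.8%. The likelihood ratio test passed 3, against 7.33% of all genes by that test. Hist1h2be differed by 1.57 ± 0.33 on the log2 scale (SE, adjusted p = 0.0112, edgeR): it had 1.96 ± 0.175 CPM in controls and 2.05 ± 0.183 CPM under UNC1999, against 2.43 ± 0.331 and 0.853 ± 0.225 CPM for Romidepsin (SD, n = 3 each). Hist2h3c2 differed by 1.25 ± 0.36 (SE, adjusted p = 0.0481, edgeR). Of the 15 alternatives all kept Hist1h2be under 0.05, whereas 10 took Hist2h3c2 above it.

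No member passed for the other 3 contrasts with edgeR. For DZNep less Romidepsin the background was 0.289%, 7 members had an unadjusted p under 0.05 against 13.8% of all genes, and Hist1h2be was at 1.24 ± 0.34 (SE, adjusted p = 0.104, edgeR) and Hist3h2a at 0.59 ± 0.16 (SE, adjusted p = 0.105, edgeR). For Romidepsin less UNC0642 the background was 0.0174%, 8 members had an unadjusted p under 0.05 against 12.6% of all genes, and Hist1h4k was at -1.95 ± 0.58 (SE, adjusted p = 0.170, edgeR). For DZNep less UNC1999 the background was 0.00579%, and 2 members had an unadjusted p under 0.05 against 9.45% of all genes. There the likelihood ratio test passed no member, against 0.249% of all genes by that test. The likelihood ratio test passed 2 for DZNep less Romidepsin, against 1.86% of all genes by that test, and none for Romidepsin less UNC0642, against 0.99%.

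Genes that work on histones were read from lists beside the members. Of 12 genes for transcription and 3′ processing of histone mRNA, 5 passed under DZNep, all higher, against 12.9% of all genes, with a median of 0.20. Npat, the activator of replication-dependent histone genes, rose from 28.4 ± 1.81 (SD, n = 4) to 35.4 ± 3.65 CPM (SD, n = 2), and Casp8ap2, Lsm11, Mif4gd and Ars2 rose by 0.22 to 0.26 on the log2 scale. None passed in the other 4 comparisons. The largest number with an unadjusted p under 0.05 was 3 of 12, under UNC1999 and Romidepsin, against 23.6% and 19.4% of all genes. Of 12 histone chaperones tested under DZNep 4 rose, against 12.9% of all genes, and none fell: Anp32e, which removes H2A.Z, by 0.51 ± 0.06, Cabin1 by 0.35 ± 0.05, Daxx, an H3.3 chaperone, by 0.24 ± 0.07, and Ubn1 by 0.21 ± 0.05 (SE). None of 13 passed under Romidepsin, UNC1999, UNC0642 or in rods. Under Romidepsin 6 of 13 had an unadjusted p under 0.05, against 19.4% of all genes, and the log2 fold changes of the list ran from -0.38 to 1.70.

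Of 13 histone genes outside the clusters, 11 were tested under DZNep. Of these 2 passed higher, against 12.9% of all genes, and 1 passed lower, against 9.72%. H2afv, an H2A.Z gene, rose by 0.29 ± 0.05, H1foo, the oocyte linker histone, rose from 0.212 ± 0.0867 to 0.899 ± 0.00798 CPM, and H1fx fell by 0.41 ± 0.10 on the log2 scale (SE). None passed in the other comparisons. H1foo, named after its values were seen, had 0.410 ± 0.128 CPM in Romidepsin controls and 2.13 ± 1.21 CPM treated (SD, n = 3 each, log2 fold change 2.35, adjusted p = 0.0638, edgeR), without overlap. Among the 22 cell division genes none passed in any comparison. Their median log2 fold change was -0.50 under UNC1999, 0.03 under DZNep and -0.16 under Romidepsin. Of the 18 tested under UNC1999, 17 were lower, against 50.4% of all genes, and 10 had an unadjusted p under 0.05, against 23.6%.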

How the data were processed

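Bulk RNA-seq counts of 22 retinas and 4 sorted rod libraries were used. The authors trimmed reads with BBDuk, aligned them to NCBIM37 (mm9) with HISAT2 2.2.1 and counted reads per Ensembl gene with HTSeq 0.11.2. The deposited values are raw counts. The strand and multi-mapping settings are not given in the sources used here, so reads of near-identical histone genes may be lost or shared. No count column was left over: 0 columns belonged to no sample. The genotype and compound numbers rise by 1 from library to library in the labels, and the study's names were used.

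Symbols, exons and loops came from GENCODE M1 on NCBIM37, which gave a symbol to 37205 of 37991 genes. Loops were searched for within 120 bases after the stop codon. Each comparison was fitted on its own groups with edgeR 4.0.16 in R 4.3.3 (filterByExpr, TMM, quasi-likelihood F test, Benjamini-Hochberg adjustment over all genes tested at 0.05), and effect differences in 1 fit of the 22 retinas. The scripts were tested on simulated counts. The same results were recomputed with DESeq2 1.42.0, with edgeR's likelihood ratio test, with RLE factors, under other filters, without each library in turn, with a replicate block and under the study's call rule (adjusted p under 0.05 and a log2 fold change over 1). The study's rule was applied here to the quasi-likelihood adjusted p, whereas the study used the likelihood ratio test. CPM were scaled by TMM factors computed within each experiment. P-values measure the spread between the samples of a group, which the labels call biological replicates.

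The members, the lists and the tests were chosen with earlier results of these data known. Named were the members that passed, H1f0 and the most abundant member of each class in every comparison, and up to 4 passing genes of each list with the smallest p; others were named after their values were seen. Symplk of the processing list was unmatched, leaving 12 of 13 genes.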

Additional observations from a re-analysis of the deposited data

Results flagged for a closer look

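The effects of UNC1999 and of Romidepsin, each against its own controls, differed for 2 of 23 members by the interaction test (edgeR, 22 retinas). Over all 17274 genes tested the share was 5.11%, and the count of members is not far from it. For Hist1h2be the difference, UNC1999 less Romidepsin, was 1.57 on the log2 scale (adjusted p = 0.0112): all 3 Romidepsin libraries were below their 3 controls, and the UNC1999 groups overlapped. For Hist2h3c2 the difference was 1.25 (adjusted p = 0.0481), with the same pattern of overlap. Of Hist2h3c2 exon words 64.1% recur elsewhere in the genome. The experiments also differed, as did the diluents of the inhibitors, and their part was not tested. In the 20 checks for a single outlying library among the 4 DZNep controls none was found.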

How the results depend on the processing

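No result reversed. Of 575 alternative values for single genes 510 kept their side of the threshold, 30 lost it and 35 gained it, and 12 changed sign without a call. Of 248 alternative counts and medians 201 stayed within 1.5 times or 1 SD. Under DZNep the count higher, 2 members, was 1 with a replicate block, 1 in the fit of all 22 retinas and 0 by the study's rule, and 0 to 2 when single libraries were left out. The count lower, 3, was 1 with the block and 0 by the study's rule, and 0 to 3 with libraries left out. Under UNC1999 the count higher, 0, was 2 by the likelihood ratio test, 1 by DESeq2 and 1 in the fit of all retinas, and that lower, 0, was 1 by each of these and 1 without a filter; both were 0 to 1 with libraries left out, 1 without control replicate 3. Under Romidepsin the count lower, 1, was 6 by the likelihood ratio test, 6 by DESeq2, 4 without a filter, 7 in the fit of all retinas, 0 with the block, and 0 to 2 with libraries left out. With at least 10 counts in every library it was again 1, but the gene was Hist1h2be, and Hist1h4k was not tested. In rods 1 was lower without a filter (Hist1h2bc). The median of the members ranged from -0.1408 to 0.0431 under UNC0642 and from -0.4664 to 0.1167 in rods with libraries left out. Of the effect differences, DZNep less Romidepsin went from 0 to 2 by the likelihood ratio test and 0 to 2 with libraries left out, UNC1999 less Romidepsin from 2 to 1 without a filter and 1 to 5 with libraries left out, and Romidepsin less UNC0642 was 0 to 1. Other causes of these moves were not tested. Fits without 1 of 2 libraries assume that the lone one varies like the others. Whether replicate numbers pair the samples is not known. Deviations of same-numbered samples correlated at -0.28 to 0.23. This cannot exclude a pairing, since deviations from the mean of so few libraries are tied to each other. The block result is given only as an alternative. Genes near 1 CPM rest on few counts: Hist1h4k on 5 to 28 in the Romidepsin experiment.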

Other observations

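Hist1h2ac (H2A), named after its values were seen, had 3.07 ± 0.950 CPM in the Romidepsin controls and 1.37 ± 0.621 CPM treated (SD, n = 3 each), with a log2 difference of -1.17 and an adjusted p of 0.155 (edgeR). In sorted rods H1foo, the oocyte linker histone, had 3.76 ± 2.25 CPM in controls and 7.01 ± 5.94 CPM treated (SD, n = 2 each), with overlap, against 0.212 to 2.13 CPM as group means in retinas.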
